A study of Mus musculus with 24 samples.

Results

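The genes for inhibitors of cyclin-dependent kinases (CDKs) were read in LSK-SLAM cells of young and old mice. The rule took every gene of the deposited table of normalized read counts whose symbol was *Cdkn1a*, *Cdkn1b*, *Cdkn1c*, *Cdkn2a*, *Cdkn2b*, *Cdkn2c*, *Cdkn2d* or *Cdkn3*. Of these 8 symbols, 5 had a row among the 18762 genes, namely *Cdkn1b*, *Cdkn1c*, *Cdkn2a*, *Cdkn2c* and *Cdkn2d*, while *Cdkn1a*, *Cdkn2b* and *Cdkn3* were not analysed here. LSK-SLAM cells are a bone marrow fraction enriched for hematopoietic stem cells (HSCs), sorted as lineage negative, Sca-1+ and c-Kit+ cells that are CD48- and CD150+. The mice were WT animals of the C57BL/6 strain, 5 Young at 4 to 5 months and 7 Old at 20 to 22 months by the labels, and the labels name no transgene or treatment. The text of the study gives higher ages for both groups than the labels do, which was not resolved here. Each mouse contributed 1 column of values, and the comparison asks how the transcripts of these cells differ with age.

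CDK inhibitors are small proteins that slow entry into the cell cycle. Those of the CIP/KIP family, p21 (*Cdkn1a*), p27 (*Cdkn1b*) and p57 (*Cdkn1c*), bind complexes of cyclins with CDK2 or CDK4 and CDK6. Those of the INK4 family, p16 (*Cdkn2a*), p15 (*Cdkn2b*), p18 (*Cdkn2c*) and p19 (*Cdkn2d*), bind CDK4 and CDK6 and keep them from D-type cyclins, so that the pocket protein RB1 stays able to hold E2F factors. In HSCs p57 is known for its part in quiescence, p18 for limiting self-renewal, and p16 as a marker of senescence that is hard to detect in healthy tissue. *Cdkn3* encodes a phosphatase that acts on CDKs and belongs to neither family.

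All positions are given for build GRCm38. *Cdkn1b* lies at chr6:134920401-134925513 on the plus strand, and *Cdkn1c* at chr7:143458339-143461050, *Cdkn2a* at chr4:89274471-89294653, *Cdkn2c* at chr4:109660876-109667189 and *Cdkn2d* at chr9:21288410-21291407 on the minus strand. *Cdkn2a* has 2 annotated transcripts, which start at different first exons and encode unrelated proteins, p16 from the downstream start and ARF from the upstream start. Of its 1172 exonic bases 575 (49.1%) belong to both transcripts, so 1 gene count pools them. *Cdkn1c* is an imprinted gene, and 24.9% of its 50-base words also occur in *Gm44732*, an antisense gene that overlaps it. How many reads of *Cdkn1c* this affects was not measured. The other members shared 0 such words with any other gene.

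The bases ahead of the starts of *Cdkn1b*, a member with many reads, and of both starts of *Cdkn2a*, the member with the fewest, are shown to let them be compared. They come from the RefSeq promoter set for GRCm38.p6, on the gene's strand, and end where the annotated first exon begins. Capitals mark CCAAT (or its reverse complement) and GGGCGG, the word bound by SP1, on either strand.
Cdkn1b, chr6:134920151-134920400: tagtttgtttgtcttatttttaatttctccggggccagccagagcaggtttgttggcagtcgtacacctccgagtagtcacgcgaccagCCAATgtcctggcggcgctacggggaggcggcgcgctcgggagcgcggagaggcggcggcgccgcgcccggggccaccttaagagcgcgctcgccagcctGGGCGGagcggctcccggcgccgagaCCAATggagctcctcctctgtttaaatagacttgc
Cdkn2a, downstream start (p16), chr4:89282193-89282442: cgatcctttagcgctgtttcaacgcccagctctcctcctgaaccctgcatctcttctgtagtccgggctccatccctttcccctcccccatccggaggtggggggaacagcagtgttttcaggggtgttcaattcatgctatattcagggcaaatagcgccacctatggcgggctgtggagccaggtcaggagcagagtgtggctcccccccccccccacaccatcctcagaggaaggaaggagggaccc
Cdkn2a, upstream start (ARF), chr4:89294654-89294869: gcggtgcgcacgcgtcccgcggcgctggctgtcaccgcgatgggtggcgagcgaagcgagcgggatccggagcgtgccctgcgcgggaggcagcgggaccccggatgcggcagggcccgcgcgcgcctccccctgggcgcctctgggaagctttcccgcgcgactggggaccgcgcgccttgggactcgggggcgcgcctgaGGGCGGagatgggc
The 250 bases ahead of *Cdkn1b* held 64.4% G and C, 28 CG pairs, CCAAT at 2 places and GGGCGG at 1. The 250 bases ahead of the p16 start held 60% G and C and only 7 CG pairs, with neither word. The 250 bases ahead of the ARF start held 78.4% G and C and 40 CG pairs, more G and C than 98.1% of all windows, and GGGCGG at 2 places, of which 1 lies in the part shown. Among the 32851 windows of this length in the set, 33.8% held CCAAT, 32.7% held GGGCGG, and the median G and C content was 52.4% with 6 CG pairs. Other words were searched on both strands and not found in these 3 windows. They were the TATA word TATAAA, held by 12.4% of all windows, the E-box CACGTG, held by 6.02%, the forkhead word GTAAACA, held by 3.17%, and the E2F words TTCGCGC or, as an alternative form, TTGGCGC, held by 3.14%. No other form of the E2F word was searched, and the ARF sequence shown holds such a form, TTTCCCGC.

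A normalized read count is the number of reads on a gene scaled by the authors to a common library size. Each value was a whole multiple of the step that a single read makes in its library, which gave back the reads, from 861047 to 5118507 per mouse. Every mouse label ends in the letter A or B, whose meaning is not given in the sources used here, and every mouse with letter A (2 young, 4 old) was sequenced less deeply than every mouse with letter B (3 young, 3 old). Of 15 markers of blood stem cells 14 had a mean of at least 10, with *Kit* between 546 and 2049, whereas *Cd48*, against which the cells were sorted, lay between 0.583 and 11.8. Markers of neutrophils and monocytes were present in every mouse: the summed level of the 12 with a row ran from 375 to 1109 in young mice and from 360 to 4674 in old mice. The labels list 2 samples for each mouse, each mouse was counted once, and p-values measure the spread between mice.

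Per kilobase of exon, the scale on which genes can be compared, *Cdkn1c* had the highest mean level at 36.9 ± 9.65 (SD, n = 12) and *Cdkn1b* followed at 32.3 ± 9.001. *Cdkn2d* lay at 12.3 ± 5.58, *Cdkn2c* at 9.31 ± 2.58 and *Cdkn2a* at 4.70 ± 4.46 normalized read counts per kilobase. *Cdkn1c* and *Cdkn1b* could not be ordered, since *Cdkn1c* was the higher in 7 of 12 mice. *Cdkn1b* stood above *Cdkn2d* in all 12 mice, although their ranges over mice overlapped, at 19.1 to 48.0 and 6.02 to 26.9. In young mouse 2 *Cdkn2d* (26.88) was close to *Cdkn1b* (26.93) and exceeded *Cdkn1c* (25.93). *Cdkn2d* exceeded *Cdkn2c* in 9 mice and *Cdkn2c* exceeded *Cdkn2a* in 11 mice, each pair with overlapping ranges. Both CIP/KIP genes thus ranked above all 3 INK4 genes by their means, and together they made up 70.8% ± 10.03 (SD, n = 5) of the per-kilobase level of the 5 genes in young mice and 73.3% ± 8.27 (SD, n = 7) in old mice. Among the 18745 genes with a length, *Cdkn1c* ranked above 95.6%, *Cdkn1b* above 94.5%, *Cdkn2d* above 77.6%, *Cdkn2c* above 70.3% and *Cdkn2a* above 50.2%.

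The level of 1099 olfactory receptor genes, which encode odour receptors of the nose, served as a measure of reads on genes that blood cells are not known to use. It was chosen after the data were seen. Their median per kilobase lay between 2.21 and 5.18 in mice with letter A and between 0.326 and 1.99 in mice with letter B, without overlap. *Cdkn1b* and *Cdkn1c* stood above the 95th percentile of these genes in all 12 mice, by 4.57 to 107 times their median for *Cdkn1b* and by 3.44 to 133 times for *Cdkn1c*. *Cdkn2c* and *Cdkn2d* did so in 10 of 12 mice, and both failed in old mice 5 and 7, the shallowest libraries. In old mouse 7 *Cdkn2c* reached 1.12 times and in old mouse 5 *Cdkn2d* reached 1.16 times the olfactory receptor median. *Cdkn2a* passed that percentile in 3 mice only, young mice 3 and 4 and old mouse 5, and in the other 9 it lay at or under it.

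**Figure D1:**
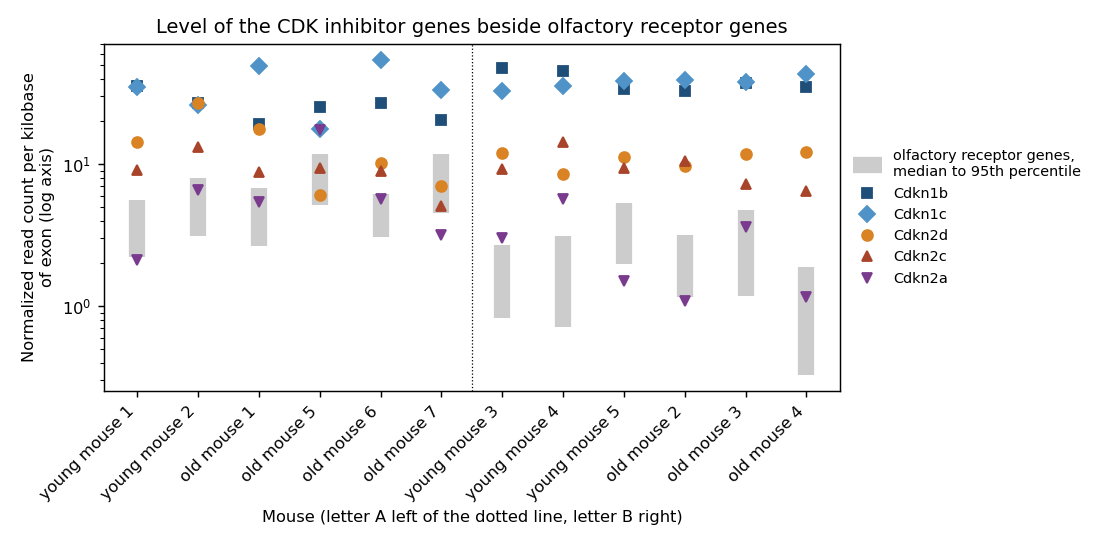
Normalized read counts per kilobase of exon (log axis) of the 5 CDK inhibitor genes in each mouse, with letter A to the left and letter B to the right of the dotted line. Grey bars run from the median to the 95th percentile of 1099 olfactory receptor genes, and Cdkn2a rises above them in 3 of 12 mice.

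*Cdkn1b* encodes p27, which binds cyclin complexes of CDK2. It had 162, 123, 218, 208 and 154 normalized read counts in young mice 1 to 5, and in old mice the lowest value was 86.8, the median 124 and the highest 170. The 2 highest values belonged to young mice and the 2 lowest to old mice, but the groups overlapped. Young mice averaged 173 ± 39.7 (SD, n = 5) and old mice 128 ± 32.3 (SD, n = 7), a ratio of 0.740. This difference did not exceed the spread between mice (exact permutation test over all 792 splits, two-sided p = 0.0556). In limma, a linear model fitted to 12354 genes whose mean reached 10, the log2 difference was -0.44 (95% confidence interval -0.88 to -0.00064, unadjusted p = 0.0497, adjusted p = 0.9997). Adjusted p-values here and below are limma's, by the Benjamini-Hochberg method over those genes, unless another tool is named.

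*Cdkn1c* encodes p57, the member tied most closely to HSC quiescence. Young mice 1 to 5 had 71.2, 52.9, 67.3, 73.0 and 78.7 normalized read counts, a narrow range, and old mice ran from 36.3 over a median of 79.4 to 111. Old mice held both the lowest value, in old mouse 5, and the highest values, in old mice 6, 1 and 4. Young mice averaged 68.6 ± 9.72 (SD, n = 5) and old mice 80.0 ± 24.1 (SD, n = 7), and the difference did not pass the test (exact permutation p = 0.347). The limma log2 difference was 0.16 (interval -0.33 to 0.66, adjusted p = 0.9997). Without old mouse 5, whose library held 46 reads of the gene, the log2 difference was 0.34 and the old mean 87.3 ± 15.9 (SD, n = 6), and the adjusted p stayed at 0.9997.

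*Cdkn2c* encodes p18. It had 24.3, 35.6, 24.9, 38.5 and 25.3 normalized read counts in young mice 1 to 5, against a lowest value of 13.5, a median of 23.5 and a highest value of 28.3 in old mice. Young mice 2 and 4 lay above every old mouse, and the other young mice lay among the old ones. Young mice averaged 29.7 ± 6.77 (SD, n = 5) and old mice 21.7 ± 5.10 (SD, n = 7), a ratio of 0.729 (exact permutation test, two-sided p = 0.0429, 1 of 5 such tests). Across all genes the difference was not called, at a log2 difference of -0.45 (interval -0.99 to 0.10, unadjusted limma p = 0.104, adjusted p = 0.9997). Its lowest value, in old mouse 7, rested on 11 reads.

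*Cdkn2d* encodes p19, the INK4 protein of this gene and not the ARF product of *Cdkn2a*. Young mice 1 to 5 had 22.7, 42.3, 18.8, 13.3 and 17.6 normalized read counts, and old mice ranged from 9.47 over a median of 16.1 to 28.0. Young mouse 2 was the highest of all and the groups overlapped over most of their range. Young mice averaged 23.0 ± 11.3 (SD, n = 5) and old mice 16.8 ± 6.11 (SD, n = 7) (exact permutation p = 0.269), with a limma log2 difference of -0.39 (interval -1.13 to 0.34, adjusted p = 0.9997).

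*Cdkn2a* had 2.49, 7.69, 3.53, 6.67 and 1.76 normalized read counts in young mice 1 to 5, from 6 to 34 reads each. Old mice ran from 1.27 over a median of 4.24 to 20.5, from 3 to 26 reads. The highest value belonged to old mouse 5, where 26 reads gave an exact Poisson interval of 13.4 to 30.1, which covers counting error only, and every other mouse lay at 7.69 or less. Young mice averaged 4.43 ± 2.62 (SD, n = 5) and old mice 6.29 ± 6.62 (SD, n = 7) (exact permutation p = 0.736), and 3.92 ± 2.31 (SD, n = 6) in old mice without old mouse 5. With a mean below 10 the gene did not enter the main fit. In the fit without a minimum mean its log2 difference was 0.17 (interval -1.12 to 1.45, adjusted p = 0.9999), an interval from 0.460 to 2.73 times the young level.

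**Figure D2:**
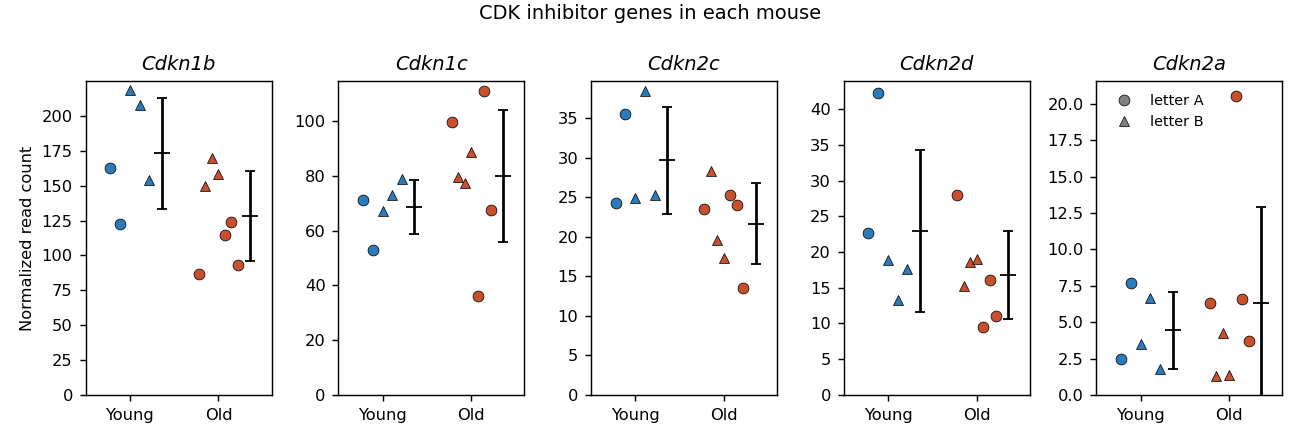
Normalized read counts of the 5 CDK inhibitor genes in each young (n = 5) and old (n = 7) mouse, with circles for letter A and triangles for letter B. Black bars give the mean and SD (the lower end for Cdkn2a in old mice is cut at 0), and the 2 ages overlap for every gene.

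Of the 4 members in the fit, 0 were called between the ages at an adjusted p under 0.05 (limma), where 13 of all 12354 genes (0.105%) were called. With an unadjusted p under 0.05 there was 1 member, *Cdkn1b*, against 488 genes (3.95%). The quasi-likelihood and likelihood-ratio tests of edgeR and DESeq2 on the recovered reads also called 0 members. DESeq2 gave no adjusted p for *Cdkn2d* (unadjusted DESeq2 p = 0.252), so it could not call that gene. Young and old values were free of overlap for 57 genes (0.461%), none of them a member. The direction was lower in old mice for *Cdkn1b*, *Cdkn2c* and *Cdkn2d* and higher for *Cdkn1c*, and the intervals still allowed *Cdkn1b* in old mice to be 0.543 times and *Cdkn1c* 1.58 times its level in young mice. Reads were also simulated at these depths, with the same dispersion for all genes and no difference between the letters. Among them 66 of 92 genes with a log2 change of 1.5 were recovered and 8 of 91 with a log2 change of 1. The smaller changes seen here were not simulated, so a missing call does not show that they are absent. Fewer cells with a transcript and less of it per cell cannot be told apart in these bulk samples.

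Because the letter goes with depth and with the olfactory receptor level, the age difference was also taken with the letter as a covariate and within each letter. With the covariate 37 genes (0.299%) were called and 0 of the 4 members, with log2 differences of -0.35 for *Cdkn1b* (unadjusted p = 0.0539), 0.20 for *Cdkn1c*, -0.45 for *Cdkn2c* and -0.43 for *Cdkn2d* in limma. *Cdkn1b* was lower in old mice in both letters, at 105 ± 17.4 (SD, n = 4) against 142 ± 28.1 (SD, n = 2) in letter A and 159 ± 10.1 (SD, n = 3) against 194 ± 34.4 (SD, n = 3) in letter B. *Cdkn2c* kept its difference in both, with limma log2 differences of -0.47 and -0.43. Exact permutation tests within a letter cannot go below p = 0.0667 in letter A or 0.10 in letter B, and for these 2 genes they gave 0.20 and 0.267 in letter A and 0.30 in letter B.
*Cdkn2d* differed in direction: in letter A it averaged 32.5 ± 13.9 (SD, n = 2) in young mice and 16.2 ± 8.39 (SD, n = 4) in old mice, and in letter B 16.6 ± 2.89 (SD, n = 3) and 17.6 ± 2.12 (SD, n = 3). The test of that difference between the letters did not pass (limma log2 1.11, interval -0.25 to 2.46, adjusted p = 0.9998, where 2 of 12354 genes, 0.0162%, were called). *Cdkn1c* was tighter in letter B, where old mice averaged 81.8 ± 6.01 (SD, n = 3) and young mice 73.0 ± 5.72 (SD, n = 3), than in old mice with letter A, at 78.7 ± 33.7 (SD, n = 4).

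**Figure D3:**
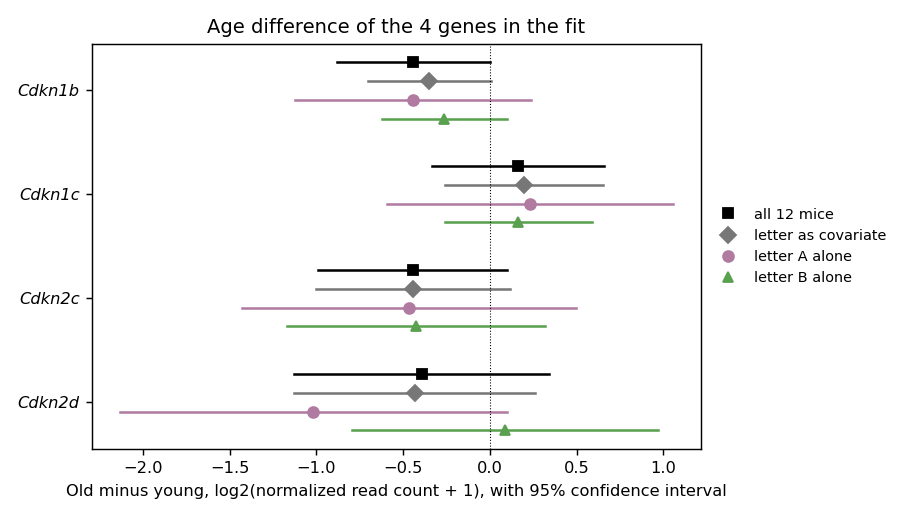
Old minus young difference in log2(normalized read count + 1) of the 4 CDK inhibitor genes in the fit, as limma estimates with 95% confidence intervals, in all 12 mice, with the letter as a covariate, and within each letter. Only the all-mice interval of Cdkn1b ends below 0, and the 2 letters lie on opposite sides of 0 for Cdkn2d.

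Between the letters, with age in the model, 4462 of 12354 genes (36.1%) were called, and among the 4 members *Cdkn1b* was. *Cdkn1b* was higher in mice with letter B, at 176 ± 29.4 (SD, n = 6) against 117 ± 26.9 (SD, n = 6) in letter A, a limma log2 difference of 0.54 (interval 0.19 to 0.89, adjusted p = 0.0160). The scaling matters here: the median of all genes was -0.09 with the deposited scaling, 0.26 with TMM and 0.21 with median ratios, and relative to it *Cdkn1b* was higher by 0.63, 0.64 and 0.64. Of the genes called, 29.2% were higher in letter B with the deposited scaling and 60.4% with TMM. After the reads were thinned to the shallowest mouse *Cdkn1b* was no longer called (log2 0.45, adjusted p = 0.0560), nor after the olfactory receptor level was subtracted (log2 0.71, adjusted p = 0.0518, or 0.23 above a median of all genes of 0.48). *Cdkn1c* (log2 0.20), *Cdkn2c* (0.0016) and *Cdkn2d* (-0.23, which changes sign under TMM) were not called, with limma adjusted p-values of 0.487, 0.997 and 0.622. *Cdkn2a* averaged 7.89 ± 6.49 (SD, n = 6) in letter A and 3.14 ± 2.12 (SD, n = 6) in letter B (exact permutation p = 0.0584). Without old mouse 5 letter A averaged 5.36 ± 2.18 (SD, n = 5), so that the gap between the letters went from -4.75 to -2.22 (exact permutation p = 0.115). The direction was that of the olfactory receptor genes, whose part in it was not tested.

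*Cdkn1c* and *Cdkn1b* were also set against each other within a mouse, a comparison chosen after the data were seen and given without a test. The ranges of their ratio in young and old mice overlapped. The per-kilobase level of *Cdkn1c* divided by that of *Cdkn1b* was 0.979, 0.963, 0.688, 0.783 and 1.14 in young mice 1 to 5, and in old mice it ran from 0.708 over a median of 1.25 to 2.57. *Cdkn1c* was thus the higher of both in 1 of 5 young and 6 of 7 old mice, the exception among old mice being old mouse 5. The 3 highest ratios, 2.57, 2.002 and 1.62, all came from old mice with letter A. With the olfactory receptor level subtracted the mean ratio was 0.909 ± 0.182 (SD, n = 5) in young mice and 1.55 ± 0.749 (SD, n = 7) in old mice.

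**Figure D4:**
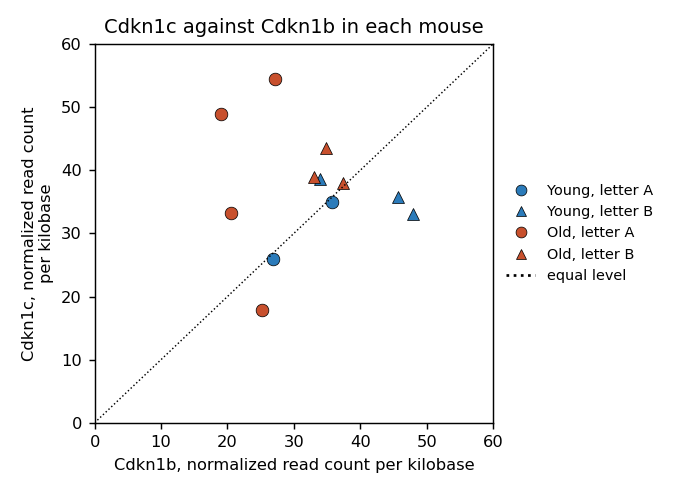
Normalized read counts per kilobase of Cdkn1c against those of Cdkn1b in each mouse, coloured by age, with circles for letter A and triangles for letter B. Mice above the dotted line of equal level have more Cdkn1c, which holds for 6 of 7 old and 1 of 5 young mice.

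The genes most like each member, by Pearson's r of log2 values over the 12 mice after the mean of each age and letter was taken off, were *Ints2* (r = 0.91) and *St8sia4* (0.89) for *Cdkn1b*, *Cse1l* (0.98) and *Arf1* (0.97) for *Cdkn1c*, *Ecm1* (0.90) and *Gcc1* (0.87) for *Cdkn2c*, and *Parp12* (0.97) and *Selp* (0.92) for *Cdkn2d*. These are descriptions of 12 libraries that share depth and letter, picked as the highest of 12354 genes. Among the members themselves *Cdkn1c* and *Cdkn2d* had r = 0.52, *Cdkn1b* and *Cdkn2d* -0.46, and the other pairs lay between -0.11 and 0.13.

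The list of kinases and cyclins on which the inhibitors act also names genes that act on these kinases. They are *Cdk7*, *Ccnh*, *Mnat1*, *Wee1*, *Cdc25a*, *Cdc25b* and *Cdc25c*, and the counts cover the whole list. Of its genes 17 were tested, 0 were called between the ages (limma) and 4 had an unadjusted p under 0.05. In old mice 15 were lower, where 52.3% of all genes were lower. Their median log2 difference was -0.31, against -0.02 for all genes tested. *Cdk4* and *Cdk6*, the targets of the INK4 proteins, had log2 differences of -0.31 and -0.29, *Cdk2* had -0.20, and the D-type cyclins *Ccnd2* and *Ccnd3* had -0.39 and -0.27. *Ccnd1* ran the other way, at 94.7 ± 25.2 (SD, n = 5) normalized read counts in young mice and 128 ± 26.1 (SD, n = 7) in old mice. Its log2 difference was 0.44, with an unadjusted limma p of 0.0525. *Ccne1*, the G1 cyclin of CDK2, was low, at 17.3 ± 5.57 and 12.97 ± 7.90. The smallest unadjusted limma p-values belonged to *Cdk1*, the mitotic kinase (log2 -0.74, p = 0.0128), and to *Ccna2*, a cyclin of S and G2 phase (log2 -0.72, p = 0.0134). Neither passed the adjusted threshold. Of pocket proteins and E2F factors 0 of 16 were called, 2 had an unadjusted p under 0.05 and 13 were lower, led by *E2f1* (log2 -0.83, unadjusted p = 0.0119) and *E2f8* (-0.66, p = 0.0388, limma), while *Rb1* had a log2 difference of 0.20.

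Genes of S phase and of G2 and M phase lay lower in old mice nearly throughout the lists. Of 38 S phase genes 36 were lower (all genes, 52.3%) and 18 (47.4%) had an unadjusted limma p under 0.05 (all genes, 3.95%), with a median log2 difference of -0.45, but 0 were called. Their summed level was 2914, 2600, 3402, 3191 and 3597 normalized read counts in young mice 1 to 5 and ran from 2042 over a median of 2396 to 2506 in old mice. Every young mouse thus lay above every old mouse, by a small margin for young mouse 2. Of all the list sums taken, only that of the S phase genes separated the ages. Of 48 G2 and M phase genes 45 were lower and 14 had an unadjusted p under 0.05, with a median of -0.35 and 0 called. In letter A 34 of the 48 were lower, with a median of -0.15, and in letter B 46, with a median of -0.66. The summed level of the 49 with a row overlapped between the ages, at 4106 to 6650 in young and 3550 to 5091 in old mice. The leading genes were *Uhrf1*, a maintenance factor of DNA methylation, at 125 ± 27.8 (SD, n = 5) and 66.8 ± 18.8 (SD, n = 7), *Dtl*, part of a ubiquitin ligase that acts in S phase, at 95.1 ± 23.2 and 55.6 ± 13.8, the condensin subunit *Ncapd2* at 146 ± 26.6 and 89.9 ± 17.99, and the spindle protein *Nusap1* at 94.7 ± 15.9 and 58.3 ± 16.6.
In letter B all 38 S phase genes were lower in old mice, with a median of -0.61, and in letter A 31 of 38, with a median of -0.20. Of all 12354 genes 6759 were lower in letter B and 6571 in letter A. With 3 mice against 3, letter B had 100 calls among the 12354 genes, and letter A had 1. In letter B 6 S phase genes were called (*Uhrf1*, *Dtl*, *Pola1*, *Tyms*, *Mcm6* and *Nasp*). *Top2a* and *Mki67* were called there too, as was *Ccna2*, whose log2 difference was -1.26 (limma adjusted p = 0.000747). In letter A 0 of these were called. The other 3 genes of these lists called in letter B were higher in old mice, the quiescence genes *Neo1* (log2 1.26), *Fhl1* (1.10) and *Txnip* (0.79). The test of the difference between the letters called 0 of the 38 S phase genes and 0 of these 12 genes, all with adjusted p = 0.9998 (limma), and 2 S phase genes had an unadjusted p under 0.05. Without old mouse 5 the S phase counts were 36 of 38 lower with a median of -0.41.
Markers of stem cells and of other cell types were compared between the ages as well. *Cd34*, which is low on the most primitive HSCs, was 182 ± 52.99 (SD, n = 5) in young mice and 84.5 ± 10.4 (SD, n = 7) in old mice, a log2 difference of -1.04 that missed the threshold (limma adjusted p = 0.0544) and passed it with the letter as a covariate (adjusted p = 0.00856). *Vwf*, a marker of platelet-biased HSCs, had a log2 difference of 0.77 (limma adjusted p = 0.780), and within letter B *Vwf* (log2 1.002) and *Slamf1* (0.88) were called higher and *Cd34* (-1.10) lower in old mice. In letter A *Vwf* had a log2 difference of 0.73, *Slamf1* 0.09 and *Cd34* -0.87, each with a limma adjusted p of 0.9997. Of 14 stem cell markers tested 7 were lower in old mice in the fit of all mice, 3 in letter B and 9 in letter A. Of all 12354 genes 6462 were lower in the fit of all mice, 6759 in letter B and 6571 in letter A.
Summed neutrophil and monocyte markers were 437, 583 and 1109 in young and 390, 360 and 398 in old mice with letter B, and 477 and 375 in young and 788, 1406, 4674 and 1087 in old mice with letter A. Of their 10 genes tested 9 were thus lower in old mice in letter B (median log2 -1.10, *Mpo* called at -2.16) and 0 in letter A (median 1.74), and *Ltf* was called in the test of the difference between the letters (limma log2 -3.85, adjusted p = 0.0235). In letter B erythroid (9 of 10), B cell (4 of 4), T and NK cell (3 of 3) and endothelial and stromal markers (8 of 10) were also lower in old mice. In letter A the counts were 3 of 10, 0 of 4, 1 of 3 and 3 of 10. The counts over all genes in each letter are those given above. The part of these cell types in the S phase difference was not tested.

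**Figure D5:**
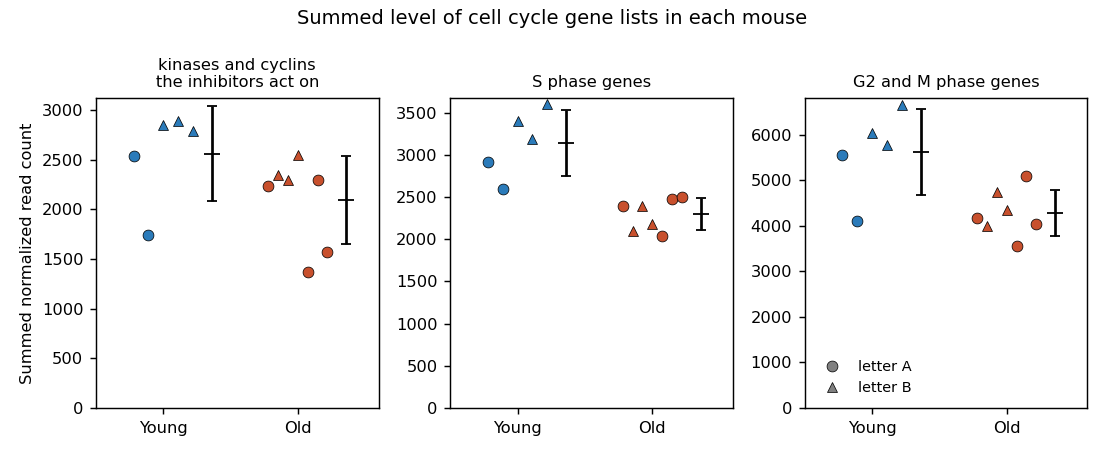
Summed normalized read counts of 18 kinases, cyclins and genes that act on them, 38 S phase genes and 49 G2 and M phase genes. Each young (n = 5) and old (n = 7) mouse is shown, with the mean and SD as black bars. The S phase sums of the young mice, 2600 to 3597, all lie above those of the old mice, 2042 to 2506. The sums of the other lists shown overlap between the ages.

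Of 42 regulators of the inhibitors 25 (59.5%) were lower in old mice, 4 (9.52%) had an unadjusted limma p under 0.05 and 0 were called, with a median of -0.08. The smallest p-values belonged to *Dtl*, given above, whose ligase is known to degrade p21, and to *Pcna*, the sliding clamp of DNA replication (log2 -0.65, unadjusted limma p = 0.0142), both lower in old mice. *Bmi1*, a Polycomb protein that represses *Cdkn2a*, had 116 ± 45.5 (SD, n = 5) normalized read counts in young mice and 119 ± 40.6 (SD, n = 7) in old mice. *Ezh2*, the methyltransferase of Polycomb complex PRC2, had 78.2 ± 7.37 and 57.5 ± 8.67 (log2 -0.44, unadjusted limma p = 0.0151). *Skp2*, which marks p27 for degradation, had log2 -0.40, *Foxo3*, a transcription factor known to act on *Cdkn1b*, -0.35 and *Trp53* -0.46, all with adjusted limma p of 0.9997.
Of 27 tested targets of p53, the pathway that controls *Cdkn1a*, 0 were called, 1 had an unadjusted p under 0.05 (*Ak1*, log2 0.61), the next smallest p belonged to *Psrc1* (log2 -0.67, limma p = 0.0650), and 13 were lower, with a median of 0.01. *Mdm2* had 164 ± 25.5 (SD, n = 5) and 176 ± 42.7 (SD, n = 7), and *Ccng1* 237 ± 61.7 and 235 ± 86.6, in young and old mice. Of 32 genes of senescence-associated secretion and stress with a row, only 16 reached a mean of 10 and were tested. Of these 0 were called, 1 had an unadjusted limma p under 0.05 (*Igfbp4*, log2 -0.44) and 11 were lower, with a median of -0.20. The next smallest p was that of the lamin gene *Lmnb1* (log2 -0.40, limma p = 0.151).

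Of 20 quiescence genes of blood stem cells 0 were called by limma, 2 had an unadjusted p under 0.05 and 9 were lower, with a median of 0.01. Those 2 were *Neo1*, the netrin-1 receptor, at 80.9 ± 26.0 (SD, n = 5) and 164 ± 52.0 (SD, n = 7; log2 0.998, adjusted p = 0.256), and *Fhl1* (log2 0.59, adjusted p = 0.983). In letter B 5 of the 20 were lower and the median was 0.26, against 11 of 20 and -0.05 in letter A. The median of all genes was -0.04 in letter B and -0.03 in letter A. With the letter as a covariate *Neo1* was called (log2 1.11, limma adjusted p = 0.00256). Over all these lists together limma called 0 of 226 genes and 40 had an unadjusted p under 0.05, while the edgeR quasi-likelihood test called 0, the likelihood-ratio test 2 (*Neo1* and *Uhrf1*) and DESeq2 3 (*Neo1*, *Uhrf1* and *Ncapd2*).
The list of genes near *Cdkn1c* in its imprinted domain also names imprinted genes of other regions, such as *Dlk1*, *Grb10* and *Peg3*. Of the whole list 18 genes were tested, 0 were called, 0 had an unadjusted limma p under 0.05, and the median was 0.04. *Igf2*, a growth factor gene of the list, had 21.5 ± 12.6 (SD, n = 5) and 25.3 ± 15.5 (SD, n = 7). In the list *Tssc4* had the smallest unadjusted p (log2 -0.51, limma p = 0.191), followed by *Cars* (log2 -0.22, limma p = 0.390). Of the members' nearest neighbours in the genome, *Cdkn2b*, 11646 bases from *Cdkn2a*, was not analysed here.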

How the data were processed

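RNA of 15000 sorted LSK-SLAM cells per mouse was depleted of ribosomal RNA, and 300 pg entered the TotalScript kit. The submitters' processing notes name FastQC 0.11.8, STAR 2.5.4b, edgeR 3.24.3 and build mm10; the counting tool and annotation are not given in the sources used here. The authors deposited a signal per gene and mouse, reads divided by the scaled library size, per 1000000. The labels list 24 samples, 2 per mouse, and each mouse has 1 column of values. A second deposited table holds the authors' own comparison (fold changes and p-values) and was not used.

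Whole reads were restored by dividing a library's values by its step for a single read, and 100% came out whole within 0.01. Depth lay between 861047 and 5118507 reads, and 3 reads were worth 0.583 to 3.69. The main fit used limma 3.58.1 (R 4.3.3) with trend on log2(value + 1) for genes with a mean of at least 10, with Benjamini-Hochberg adjustment and calls at an adjusted p under 0.05. A fold change on this scale understates the change of low genes. This fit had been set for normalized values and was kept once reads were recovered; edgeR 4.0.16 and DESeq2 1.42.0 were run on the reads as alternatives. Single values were compared by exact permutation tests (two-sided, difference of means, every split; Python 3.11.15, numpy 2.4.6, scipy 1.17.1, pandas 2.3.3), with a smallest p of 0.00126 for 5 against 7. Both procedures were tested on simulated data. Gene positions, exon lengths and shared words of 50 bases came from GENCODE vM21, in which 18745 of 18762 identifiers were found; mm10 and GRCm38 are the same build.

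The members and gene lists were chosen with earlier results of these data known. Named genes were the members; in each list the genes called or else the 2 with the smallest p; set partners (*Kcnq1ot1* and *H19* had no row); and the 2 genes most like each member. Genes called in letter B alone, between the letters or by other tools, and cell type markers beyond the fixed summaries, were named after their values were seen. Alternatives were other pseudocounts, minimum means, no trend, the letter as a covariate, either letter alone, a replicate block, median ratio, TMM and library size scaling, the count tests, thinned reads and each mouse left out. Subtraction of the olfactory receptor level (each gene's length times that mouse's median, floored at 0) was added after the data were seen.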

Additional observations from a re-analysis of the deposited data

Results flagged for a closer look

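*Cdkn2a* in old mouse 5 stood apart from the other old mice, at 20.5 normalized read counts (26 reads) against 1.27 to 6.61 in the other 6. Its gap to the next mouse was 0.722 of the range of old mice. In the same mouse *Cdkn2a* lay above 99.1% of the olfactory receptor genes per kilobase, *Cdkn1c* was the lowest of all mice at 36.3, and the olfactory receptor median was the highest at 5.18 per kilobase. The check covered 14 groups, of which chance flags about 1 in 20, so that 0.70 would be expected.

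*Ltf*, the lactoferrin gene of neutrophils, differed between the letters in its age difference: it was higher in old mice in letter A (log2 2.54) and lower in letter B (-1.30), a difference of -3.85 (limma adjusted p = 0.0235). It is 1 of 2 genes called in that test, the other being *Cybb* (-3.50).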

How the results depend on the processing

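Over 155 alternatives 0 of the 5 members were called between the ages, where DESeq2 gave no adjusted p for *Cdkn2d*. *Cdkn1b* stayed lower in old mice (log2 -0.56 to -0.26), *Cdkn2c* lower (-0.93 to -0.34) and *Cdkn1c* higher (0.07 to 0.34) throughout. *Cdkn2d* reversed within letter B (0.088). *Cdkn2a* reversed within letter B (-0.59), without young mouse 5 (-0.04) and without old mouse 5 (-0.16). With 1 mouse left out in turn the range was -0.56 to -0.35 for *Cdkn1b*, 0.07 to 0.34 for *Cdkn1c*, -0.51 to -0.34 for *Cdkn2c*, -0.55 to -0.15 for *Cdkn2d* and -0.16 to 0.38 for *Cdkn2a*. Between the letters *Cdkn1b* lost its call with thinned reads (0.45) and after subtraction of the olfactory receptor level (0.71), *Cdkn2c* reversed with the edgeR quasi-likelihood test (-0.011), and *Cdkn2d* reversed with median ratios (0.058), TMM (0.11), thinned reads (0.0064) and the subtraction (0.33). The causes were not tested.

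The count of genes called between the ages moved from 13 to 41 with the likelihood-ratio test, 57 with DESeq2, 37 with the letter as a covariate, 43 with the quasi-likelihood test and the letter, 2 without a variance trend, 1 in letter A, 100 in letter B, 5 with median ratios and 5 with TMM, and to 0 after the olfactory receptor level was subtracted (2 with the letter as well). Leaving out 1 mouse gave 3 to 32, the 32 without old mouse 5 and 3 without young mouse 3 or 4 or old mouse 1, 2 or 3. In the related lists the count moved from 0 to 2 (likelihood-ratio test), 3 (DESeq2), 12 (letter B), and 1 each (*Neo1*) with the letter as a covariate, with the quasi-likelihood test and the letter, and with the replicate block. After the subtraction the median of all genes between the ages was -0.27, so that changes there are read against it.

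The replicate numbers name different animals. Deviations of young and old mice with the same number correlated with a mean of 0.136 (-0.559 to 0.615), and 2 of 5 young mice correlated best with their own number. With the replicate block over replicates 1 to 5, 19 genes were called, against 8 in the same mice without the pairing, and the members had log2 differences of -0.36 (*Cdkn1b*), 0.09 (*Cdkn1c*), -0.36 (*Cdkn2c*) and -0.30 (*Cdkn2d*), 0 of them called.

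*Cdkn2a* was tested by permutation and, in limma, only with a minimum mean of 5 or none. Depth limits *Cdkn2a*, and *Cdkn2c* and *Cdkn2d* in old mice 5 and 7, which held 9 to 32 reads of them.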
